A study of Mus musculus with 12 samples.

Results

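The genes described are the enzymes that remove methyl groups from lysine 9 of histone H3 (H3K9), here called erasers, and those that add them, here called writers. They were chosen by gene symbol and role, with earlier results of these data known, and are 10 of the 24411 symbols measured. The shares of all genes set beside their counts are therefore a description and not a test. The 6 erasers were Kdm3a, Kdm3b and Jmjd1c of the KDM3 family and Kdm4a, Kdm4b and Kdm4c of the KDM4 family. The 4 writers were Ehmt1, Ehmt2, Setdb1 and Suv39h1. All 10 passed the filter on low values and were tested.

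RNA was sequenced from NR5A1(+) cells of fetal mouse gonads, the somatic cells that express the nuclear receptor NR5A1 and give rise to the supporting and steroid-producing cells of testis and ovary. All 5 groups carried the genotype Nr5a1-hCD271, in which the Nr5a1 gene drives a cell-surface tag. Deferoxamine-treated XY gonads (Dfo XY, n = 3), untreated XY gonads (control XY, n = 3) and untreated XX gonads (control XX, n = 2) came from embryos of embryonic day E10.8 and were cultured for 19.2 h. These explants held the gonads of both sides together with aorta, mesonephros and mesenchyme, in medium with horse serum. Deferoxamine, an iron chelator, was given at 150 µM. XY gonads (E11.5 XY, n = 2) and XX gonads (E11.5 XX, n = 2) labelled as wild type at E11.5 completed the set. The E11.5 samples carry the same culture text as the others, so how they were collected is not settled by the labels. Nothing in the labels ties a replicate to a separate embryo or litter, and p-values reflect only the spread among libraries, which may be technical.

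Methylation of H3K9 is a mark of silent chromatin. The erasers of this list belong to the JmjC enzymes, which need ferrous iron, oxygen and 2-oxoglutarate, whereas the writers use S-adenosylmethionine and no iron. In the XY gonad of the mouse, KDM3A is known to remove H3K9 dimethylation at Sry, the gene that starts testis development, and the pair EHMT1 and EHMT2 is known to oppose it there. In other cells, Kdm3a, Kdm4b and Kdm4c are known to be transcribed under the hypoxia-inducible factors, which are broken down through iron-dependent hydroxylases and bind DNA at ACGTG or GCGTG. Levels are given as TPM, transcript abundances scaled for transcript length and to a common library total, so that levels can be set side by side between genes. Protein, enzyme activity and the H3K9 mark are not part of the data analysed here.

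The bases before the transcription start are shown for 5 members, because 3 of them were higher with deferoxamine and hold a motif and the others differ from them in motif, in response or in both. Each line holds 250 bases up to the start as RefSeq gives it on GRCm38.p6, written 5′ to 3′ in the direction of the gene, and capitals mark every ACGTG or GCGTG and its reverse complement. CACGTG reads as a match on each strand, so its 2 matches overlap. The Kdm3a window lies at chr6:71632918-71633167 (minus strand), the Jmjd1c window at chr10:67126838-67127087 (plus strand) and the Kdm4c window at chr4:74251629-74251878 (plus strand). The Ehmt2 window lies at chr17:34898224-34898473 (plus strand) and the Kdm4a window at chr4:118180044-118180293 (minus strand).
Kdm3a: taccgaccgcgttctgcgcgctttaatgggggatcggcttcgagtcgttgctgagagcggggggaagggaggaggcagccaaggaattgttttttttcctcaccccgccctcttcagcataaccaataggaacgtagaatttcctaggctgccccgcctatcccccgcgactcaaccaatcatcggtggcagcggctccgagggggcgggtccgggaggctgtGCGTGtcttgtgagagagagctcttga
Jmjd1c: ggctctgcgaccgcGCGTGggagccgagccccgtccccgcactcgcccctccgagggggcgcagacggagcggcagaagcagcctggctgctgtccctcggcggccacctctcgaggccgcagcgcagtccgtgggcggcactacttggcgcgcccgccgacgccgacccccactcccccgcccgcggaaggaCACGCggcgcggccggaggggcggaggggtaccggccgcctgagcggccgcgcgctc
Kdm4c: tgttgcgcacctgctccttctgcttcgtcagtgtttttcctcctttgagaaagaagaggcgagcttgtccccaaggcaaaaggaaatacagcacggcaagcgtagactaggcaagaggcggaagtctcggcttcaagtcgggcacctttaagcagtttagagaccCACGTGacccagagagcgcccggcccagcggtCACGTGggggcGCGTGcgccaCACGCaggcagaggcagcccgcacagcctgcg
Ehmt2: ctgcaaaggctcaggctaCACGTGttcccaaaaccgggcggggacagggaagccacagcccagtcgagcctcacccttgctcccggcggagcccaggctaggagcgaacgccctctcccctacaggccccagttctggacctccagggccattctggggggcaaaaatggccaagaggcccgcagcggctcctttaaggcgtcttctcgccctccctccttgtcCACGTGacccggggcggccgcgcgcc
Kdm4a: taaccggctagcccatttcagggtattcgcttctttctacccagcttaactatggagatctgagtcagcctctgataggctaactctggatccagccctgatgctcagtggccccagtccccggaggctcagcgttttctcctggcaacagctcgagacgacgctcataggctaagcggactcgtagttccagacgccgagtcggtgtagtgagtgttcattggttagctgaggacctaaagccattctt

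The Kdm3a window held 1 match, GCGTG on the strand of the gene, 27 to 23 bases before the start. The Jmjd1c window held 2 matches, and the Kdm4c window held 6 in 4 separate stretches, all within 85 bases of the start. The Jmjd1c and Kdm4c windows belong to starts inside the gene as GENCODE places it. The table also holds 2 further windows of Kdm3a, 1 of Jmjd1c and 1 of Kdm4c, the last at the outermost start of the gene, and each of these held 0. The Ehmt2 window shown held 4 matches in 2 stretches although Ehmt2 is a writer, and the Kdm4a window held 0. A further Ehmt2 window, at chr17:34898720-34898969, held 4 matches in 3 stretches, and 1 of the windows of Suv39h1 held 0. A window was used for 8 members, all but Kdm3b and Kdm4b, with 14 windows in all, and 7 of these 8 had at least 1 match, Ehmt1, Setdb1 and Suv39h1 with 1 each. Over the whole RefSeq table, 38.6% of 32851 windows and 41.5% of genes held a match, 2.58% of windows held 4 or more and 0.417% held 6 or more. The matches are letters in a window and are not shown to be bound.

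Before the results, 3 features of the libraries bear on them. TPM does not keep sequencing depth, which is unknown; between 14578 and 18931 symbols were above 0, and between 13133 and 16001 had at least 1 TPM. Rpph1, the RNA of ribonuclease P, alone took 19.5 to 23.6% of all TPM in Dfo XY, 15.3 to 20.3% in control XY, 6.96 to 7.20% in control XX, 12.02 to 12.2% in E11.5 XY and 8.57 to 11.47% in E11.5 XX, so that the remaining genes share a smaller total in the XY groups. For this reason each comparison was also run after median-of-ratios scaling, and ratios within a library, which no scaling can change, are given. Xist, the RNA of the inactive X chromosome, was at 13.6, 24.6 and 0.28 TPM in Dfo XY replicates 1, 2 and 3, at or below 0.18 TPM in control XY, at 166 and 175 TPM in control XX, at or below 0.90 TPM in E11.5 XY and at 124 and 149 TPM in E11.5 XX. Dfo XY replicates 1 and 2 therefore go in part against their XY label, and the adjusted p of the called members, of Ehmt2 and Suv39h1 and of Sry, and the eraser-to-writer ratio, are also given without them; the counts, medians and marker sums use all libraries.

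The comparison of Dfo XY with control XY asks how RNA of erasers and writers differs when iron is withheld from cultured XY gonads. Kdm3a and Kdm4b, 1 eraser from each family, rose by more than 2-fold, Jmjd1c and Kdm4c rose by less, and Kdm3b and Kdm4a did not pass the test. None of the 4 writers passed it. In the limma test with Benjamini-Hochberg adjustment, 4 of 10 members were called higher and 0 lower, where 4.98% of the 16133 genes tested were called higher and 10.5% lower. Before adjustment, 6 of the 10 members had p under 0.05, as had 29.5% of all genes.

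Kdm3a (chromosome 6, 71588972 to 71632990, minus strand, mm10 with GENCODE M21, as for all positions of genes below) encodes a demethylase of mono- and dimethylated H3K9. It was at 290.4, 304 and 301 TPM in Dfo XY, against 92.9, 87.7 and 104 TPM in control XY. Every Dfo XY library thus stood far above every control XY library, and the spread within each group was small, with means of 298 ± 7.03 and 94.8 ± 8.15 TPM (SD, n = 3 each). The log2 change, on the scale of log2(TPM + 1) used throughout, was 1.65 ± 0.10 (SE), or 3.13-fold, with an adjusted p of 8.38e-07 in limma. It ranked 126th among all genes tested by size of increase, within the top 0.781%. Without the Dfo XY libraries that held Xist, the change was 1.66 ± 0.16 with an adjusted p of 0.000248 in limma; the lone Dfo XY library is then assumed to vary like the other groups.

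Kdm4b (chromosome 17, 56326062 to 56402870, plus strand) encodes a demethylase of trimethylated H3K9. It was at 87.1, 83.3 and 78.0 TPM in Dfo XY, against 34.8, 32.0 and 34.9 TPM in control XY. The groups did not overlap, and the lowest Dfo XY library was more than 2-fold above the highest control XY library. The log2 change was 1.26 ± 0.10, or 2.40-fold, with an adjusted p of 5.64e-06 in limma, and 1.18 ± 0.16 (adjusted p = 0.00167) without the Xist-holding libraries. By size of increase Kdm4b ranked 225th, within the top 1.39% of genes.

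Jmjd1c (chromosome 10, 67096125 to 67256326, plus strand) is the third KDM3 gene, and its activity on H3K9 is debated. It was at 60.6, 55.1 and 65.4 TPM in Dfo XY, against 47.7, 46.6 and 47.7 TPM in control XY. Kdm4c (chromosome 4, 74242497 to 74405860, plus strand), a demethylase of trimethylated H3K9 like Kdm4b, was at 21.7, 24.1 and 27.2 TPM in Dfo XY, against 16.7, 16.7 and 19.0 TPM in control XY. In neither gene did the groups overlap, but the gap between them was narrow next to those of Kdm3a and Kdm4b. The log2 change was 0.34 ± 0.11 for Jmjd1c (1.27-fold, adjusted p = 0.0465 in limma). For Kdm4c it was 0.46 ± 0.14 (1.37-fold, adjusted p = 0.0450 in limma). Neither call is firm: each was lost when any 1 of the 6 libraries was left out, and without both Xist-holding libraries the adjusted p was 0.127 for Jmjd1c and 0.130 for Kdm4c in limma.

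The other erasers stood close to control. Kdm3b, the nearest relative of Kdm3a, was at 57.7, 57.1 and 68.0 TPM in Dfo XY, against 56.2, 59.6 and 69.2 TPM in control XY. Kdm4a (chromosome 4, 118136957 to 118180043, minus strand), which removes trimethylation from H3K9 and H3K36, was at 82.5, 81.3 and 95.6 TPM in Dfo XY, against 89.7, 86.0 and 102 TPM in control XY. In each gene the libraries of the groups were interleaved. The log2 changes were -0.016 ± 0.11 for Kdm3b (adjusted p = 0.940) and -0.095 ± 0.10 for Kdm4a (adjusted p = 0.556) in limma, and each turned positive after median-of-ratios scaling, at 0.13 and 0.055.

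Among the writers, Ehmt2 (chromosome 17, 34898469 to 34914052, plus strand) and Ehmt1 (chromosome 2, 24789928 to 24919614, minus strand) encode the partners of the complex that makes H3K9 mono- and dimethylation. Ehmt2 was at 84.5, 81.5 and 89.6 TPM in Dfo XY, against 106, 103 and 108 TPM in control XY. Every Dfo XY library of Ehmt2 lay below every control XY library. Ehmt1 was at 53.3, 57.3 and 73.9 TPM in Dfo XY, against 64.9, 70.1 and 76.7 TPM in control XY, and its groups overlapped through Dfo XY replicate 3. The log2 change was -0.31 ± 0.10 for Ehmt2 (adjusted p = 0.0619) and -0.21 ± 0.12 for Ehmt1 (adjusted p = 0.276) in limma. Without Dfo XY replicate 3, Ehmt1 was called lower, at -0.34 with an adjusted p of 0.0426.

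Setdb1 and Suv39h1 make H3K9 trimethylation, Setdb1 at retroviral and other silenced elements and Suv39h1 at the heterochromatin around centromeres. Suv39h1 (chromosome X, 8061171 to 8074760, minus strand) was at 24.5, 26.6 and 27.4 TPM in Dfo XY, against 32.5, 33.1 and 35.9 TPM in control XY. Setdb1 (chromosome 3, 95323525 to 95357202, minus strand) was at 42.3, 40.7 and 57.3 TPM in Dfo XY, against 45.3, 43.9 and 56.0 TPM in control XY. The groups did not overlap for Suv39h1, with Dfo XY lower, and overlapped for Setdb1. The log2 change was -0.36 ± 0.11 for Suv39h1 (adjusted p = 0.0519) and -0.057 ± 0.14 for Setdb1 (adjusted p = 0.829) in limma, and that of Setdb1 turned positive after median-of-ratios scaling, at 0.092.

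Ehmt2 and Suv39h1 stood near the threshold, and their calls depended on which libraries entered the fit. With only the 6 libraries of this comparison in the fit they were called lower, with adjusted p of 0.0312 and 0.0387 in limma. With the replicate number as a block in that fit of 6 libraries, the adjusted p were 0.0120 and 0.0211. Over the 14556 genes tested in the fit of 6 libraries, 4339 were called with the block and 2979 without it, against 2498 of 16133 in the fit of all libraries. After median-of-ratios scaling the change was -0.16 for Ehmt2 and -0.21 for Suv39h1, and neither was called. Without the Xist-holding libraries it was -0.23 for Ehmt2 (adjusted p = 0.469) and -0.30 for Suv39h1 (adjusted p = 0.406) in limma. Groups without overlap and lower in Dfo XY were found in 2 of 10 members, Ehmt2 and Suv39h1, where 26.5% of all genes had them, and groups without overlap and higher in Dfo XY in 4 of 10, where 11.6% of all genes had them.

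**Figure D1:**
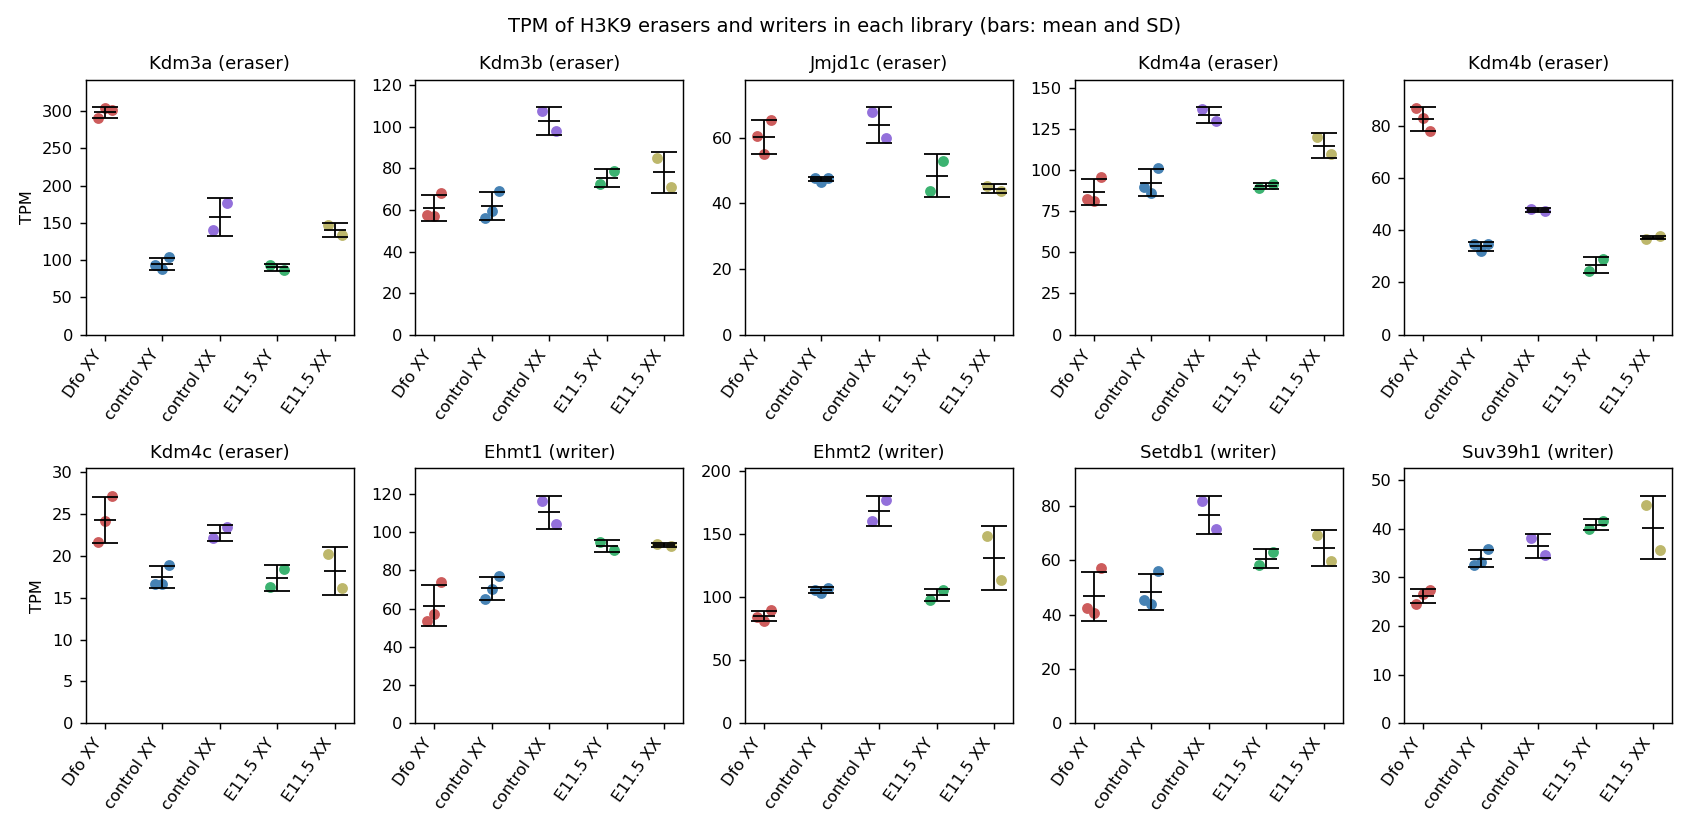
TPM of each of the 10 genes (vertical axes, each from 0) in every library of Dfo XY, control XY, control XX, E11.5 XY and E11.5 XX, with points for libraries and bars for the mean and SD. Kdm3a at 290.4 to 304 TPM and Kdm4b at 78.0 to 87.1 TPM in Dfo XY stood above all libraries of the other groups. Among the groups without deferoxamine, control XX had the highest mean for every gene but Suv39h1.

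The median log2 change was 0.40 over the 6 erasers and -0.26 over the 4 writers, beside -0.17 over all genes tested. After median-of-ratios scaling the median of all genes was -0.049, and 1519 genes were called higher and 1022 lower, against 803 higher and 1695 lower with TPM as deposited. The same 4 erasers were called higher after that scaling, with Kdm3a at 1.80 and Kdm4b at 1.41, and with adjusted p of 0.00384 for Jmjd1c and 0.00388 for Kdm4c in limma.

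**Figure D2:**
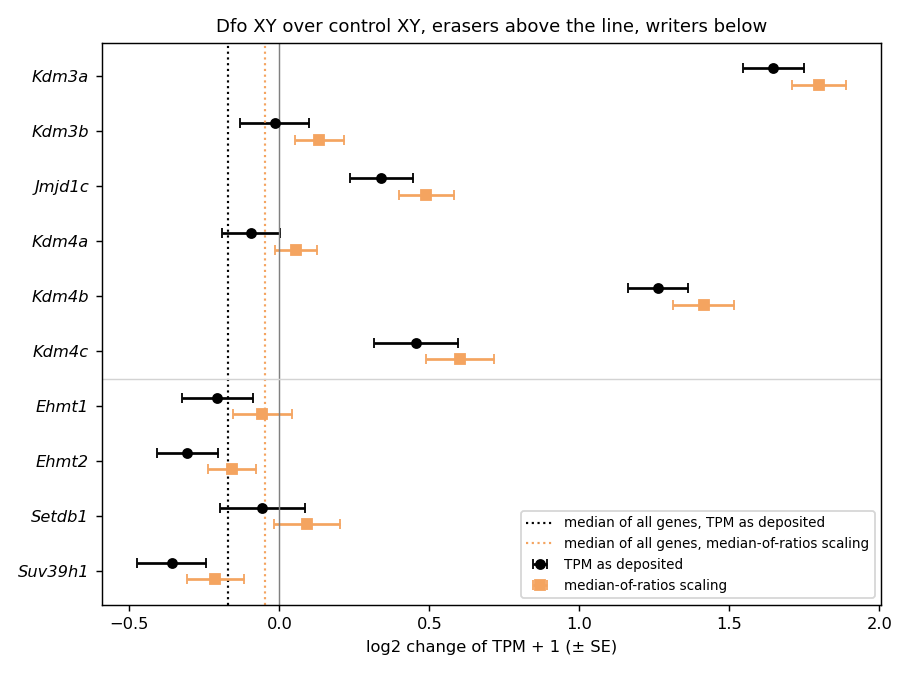
Log2 change of TPM + 1 from Dfo XY over control XY (horizontal axis, ± SE) for the 6 erasers above the line and the 4 writers below it, with TPM as deposited and after median-of-ratios scaling; dotted lines mark the median of all genes. Kdm3a at 1.65 and Kdm4b at 1.26 lie far to the right of the other 8 genes under each scaling.

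Ratios within a library show the same shift without any scaling. The log2 ratio of summed eraser TPM to summed writer TPM was 1.55, 1.55 and 1.36 in Dfo XY, against 0.44, 0.39 and 0.44 in control XY. Its mean was 1.49 ± 0.11 in Dfo XY and 0.43 ± 0.030 in control XY (SD, n = 3 each), a difference of 1.06, or 2.08-fold. Without the Xist-holding libraries the difference was 0.93. The summed eraser TPM was 613 ± 19.2 in Dfo XY and 348 ± 25.1 in control XY, and the summed writer TPM was 219.7 ± 24.6 in Dfo XY and 258 ± 15.7 in control XY. Kdm3a and Kdm4b carried most of the shift: without them the log2 ratio was 0.082 ± 0.037 in Dfo XY and -0.24 ± 0.021 in control XY. These ratios are sums over chosen genes and are given as a description, with no test.

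The make-up of each eraser family differed too. Kdm3a made up 71.0, 73.0 and 69.3% of KDM3 TPM in Dfo XY, against 47.2, 45.2 and 47.0% in control XY. Kdm4b made up 45.5, 44.1 and 38.8% of KDM4 TPM in Dfo XY, against 24.6, 23.7 and 22.5% in control XY. Kdm3a was the most abundant KDM3 gene in every library of these groups. Kdm4a was the most abundant KDM4 gene in control XY, and in Dfo XY Kdm4b stood above it in replicates 1 and 2. Kdm3a alone made up 48.7 ± 1.43% of the eraser TPM in Dfo XY and 27.2 ± 0.482% in control XY (SD, n = 3 each). Kdm3a stood at 3.51 ± 0.192 times the level of Ehmt2 in Dfo XY and at 0.897 ± 0.0579 times in control XY.

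**Figure D3:**
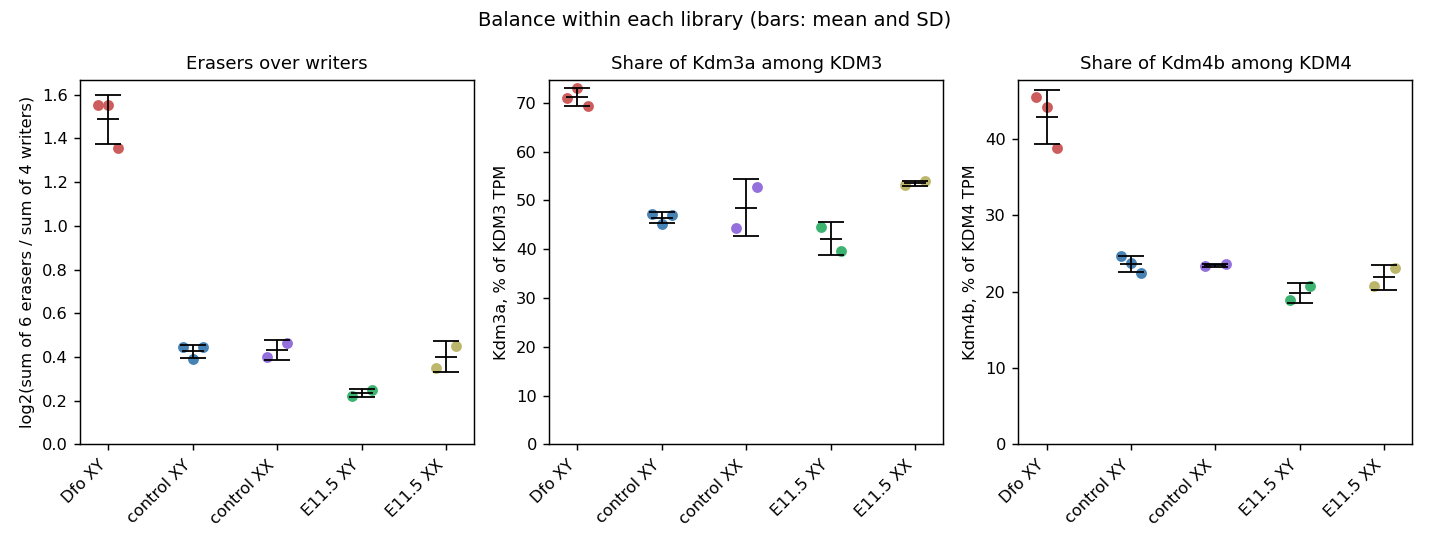
Within-library balance by group, with points for libraries and bars for the mean and SD: the log2 ratio of summed erasers to summed writers, Kdm3a as a percent of KDM3 TPM and Kdm4b as a percent of KDM4 TPM. In Dfo XY all 3 quantities lie above every library of the other groups, with a mean log2 ratio of 1.49 and the other group means between 0.24 and 0.43.

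Sry, the target of KDM3A named above, was at 4.23, 2.40 and 4.18 TPM in Dfo XY, against 19.5, 16.4 and 45.6 TPM in control XY, while Kdm3a RNA was higher in Dfo XY. In limma its log2 change was -2.50 ± 0.33 with an adjusted p of 0.000359, and -2.30 ± 0.48 (adjusted p = 0.0209) without the Xist-holding libraries.

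Marker levels of several cell types moved with deferoxamine, in TPM as deposited. On that scale 10.5% of all genes were called lower and 4.98% higher, and the median log2 change of all genes was -0.17. The 6 markers of gonadal somatic cells, Nr5a1 among them, summed to 492 to 558 TPM in Dfo XY and 648 to 794 TPM in control XY, with 4 of 6 called lower and no marker at 0 throughout a group. Summed markers ranged from 932 to 2414 TPM in Dfo XY and 222.5 to 1864 TPM in control XY for erythroid cells, with Hbb-bs at 0 in each group, and 0 of 6 were called. Endothelial markers summed to 91.6 to 155 TPM in Dfo XY and 64.7 to 142 TPM in control XY, and macrophage markers to 62.1 to 89.4 TPM in Dfo XY and 35.0 to 75.7 TPM in control XY, with 0 of 6 called in each list. Mesenchyme markers summed to 481 to 587 TPM in Dfo XY and 660 to 732 TPM in control XY, and mesonephric markers to 45.4 to 82.4 TPM in Dfo XY and 88.8 to 105 TPM in control XY, with 2 of 6 called lower in each list. Neural markers summed to 44.3 to 72.0 TPM in Dfo XY and 55.6 to 141 TPM in control XY, with 1 called higher and 2 lower, and germ cell markers to 3.14 to 7.33 TPM in Dfo XY and 12.5 to 14.9 TPM in control XY, with 1 called lower. The part of these differences in the results for erasers and writers was not tested, and in such bulk samples fewer cells of a type and less RNA per cell cannot be told apart.

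A further 30 genes of the H3K9 pathway, listed by role as other erasers, other writers, partners of the writers and readers of the mark, were read in the same fit. Of these, 2 were called higher and 5 lower in Dfo XY than in control XY (3 and 3 after median-of-ratios scaling), with a median log2 change of -0.19, close to that of all genes. Atf7ip, the partner that keeps SETDB1 in the nucleus, fell to 34.7, 35.6 and 28.5 TPM in Dfo XY, against 88.8, 82.8 and 86.5 TPM in control XY. Its log2 change was -1.37 ± 0.10 (adjusted p = 3.09e-06 in limma), and its libraries did not overlap between the groups. Setdb1 itself, as given above, did not pass the test.

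Kdm7a, a JmjC demethylase of H3K9 and H3K27, was at 34.2, 31.2 and 33.6 TPM in Dfo XY, against 16.9, 17.2 and 16.9 TPM in control XY. Mina (also Riox2), a JmjC oxygenase, was at 9.12, 8.33 and 9.53 TPM in Dfo XY, against 16.7, 16.0 and 18.9 TPM in control XY. These JmjC genes thus moved in opposite directions, with log2 changes of 0.92 ± 0.12 for Kdm7a (adjusted p = 0.000233) and -0.86 ± 0.16 for Mina (adjusted p = 0.00346) in limma. Kdm1a, an H3K9 and H3K4 demethylase that uses flavin in place of iron, was at 148, 157 and 158 TPM in Dfo XY, against 121, 119 and 113 TPM in control XY. Its log2 change of 0.39 ± 0.078 (adjusted p = 0.00594 in limma) was smaller than those of Kdm3a and Kdm4b.

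Pphln1, a subunit of the HUSH silencing complex, was at 21.7, 23.0 and 27.1 TPM in Dfo XY, against 36.0, 31.7 and 36.3 TPM in control XY, with a log2 change of -0.52 ± 0.12 (adjusted p = 0.0107 in limma). Its groups did not overlap. Without the Xist-holding libraries the calls of Mina (adjusted p = 0.0923), Kdm1a (0.0689) and Pphln1 (0.292) were lost in limma, while those of Atf7ip and Kdm7a held.

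**Figure D4:**
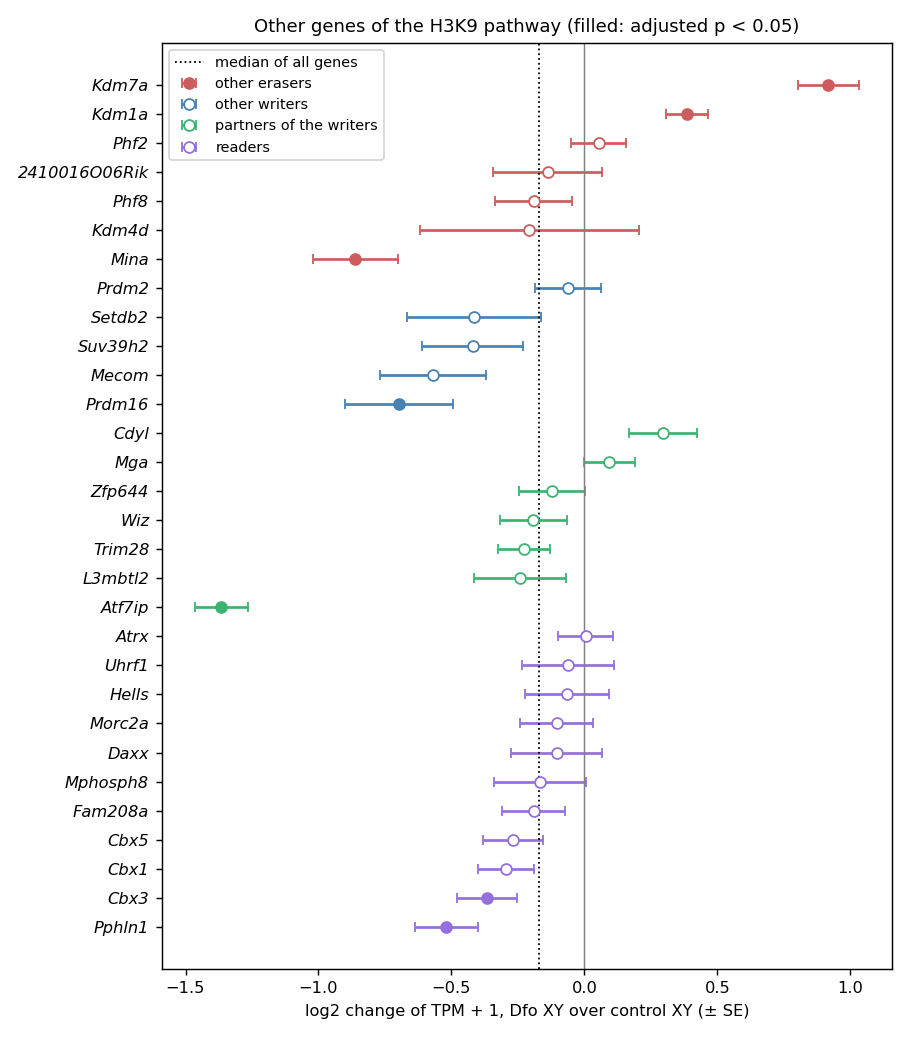
Log2 change of TPM + 1 in Dfo XY over control XY (horizontal axis, ± SE) for 30 other genes of the H3K9 pathway, grouped by role; filled points passed an adjusted p of 0.05 and the dotted line is the median of all genes. Atf7ip at -1.37 and Kdm7a at 0.92 stand farthest from it.

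Between the sexes in culture, most erasers and writers were lower in XY as TPM were deposited, and fewer after scaling. In the limma test of control XY against control XX, 8 of 10 members were called lower and 0 higher, where 22.2% of all genes were called lower and 2.97% higher. The called members were Kdm3a, Kdm3b, Jmjd1c, Kdm4a, Kdm4b, Ehmt1, Ehmt2 and Setdb1. Kdm3a was at 92.9, 87.7 and 104 TPM in control XY, against 140.1 and 176 TPM in control XX, with a log2 change of -0.73 ± 0.11 (adjusted p = 0.00147 in limma). Kdm3b was at 56.2, 59.6 and 69.2 TPM in control XY, against 108 and 98.1 TPM in control XX, with a log2 change of -0.73 ± 0.13 (adjusted p = 0.00240 in limma). Ehmt2 was at 106, 103 and 108 TPM in control XY, against 160.4 and 177 TPM in control XX, with a log2 change of -0.67 ± 0.11 (adjusted p = 0.00227 in limma). In these 3 genes every control XY library lay below every control XX library, as it did in 9 of the 10 members, where 41.4% of all genes showed this.

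The other called members had log2 changes of -0.42 ± 0.12 for Jmjd1c, -0.53 ± 0.11 for Kdm4a, -0.49 ± 0.11 for Kdm4b, -0.64 ± 0.13 for Ehmt1 and -0.66 ± 0.16 for Setdb1, with adjusted p between 0.00492 and 0.0208 in limma. Kdm4c stood at -0.37 and Suv39h1 at -0.10 and were not called. Of the 30 other genes of the pathway, 17 were called lower and 0 higher in control XY than in control XX with TPM as deposited. Over all genes 22.2% were called lower and 2.97% higher. After median-of-ratios scaling 3 of the 30 were called lower and 0 higher, where 499 and 528 of all 16146 genes tested were. The log2 ratio of summed erasers to summed writers was 0.44, 0.39 and 0.44 in control XY and 0.40 and 0.47 in control XX, and the groups overlapped.

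These calls depended on scaling. The median of all genes was -0.22 with TPM as deposited and 0.070 after median-of-ratios scaling, and the genes called were 479 higher and 3585 lower with TPM as deposited, and 528 higher and 499 lower after scaling. After that scaling 3 members were called lower, Kdm3a at -0.40 (adjusted p = 0.0393), Kdm3b at -0.40 (adjusted p = 0.0276) and Ehmt2 at -0.34 (adjusted p = 0.0444), in limma, and the value of Suv39h1 turned positive, at 0.22. The same 3 were called when the 50 most abundant genes were left out of the TPM total. Leaving out control XX replicate 1 ended the calls of Jmjd1c, Kdm4b, Ehmt1 and Setdb1, which took the members called to 4.

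Marker levels differed between these groups as well. Gonadal somatic markers summed to 648 to 794 TPM in control XY and 1278 to 1350 TPM in control XX, mesenchyme markers to 660 to 732 TPM in control XY and 1015 to 1051 TPM in control XX, and erythroid markers to 222.5 to 1864 TPM in control XY and 142 to 161 TPM in control XX. Neural markers summed to 55.6 to 141 TPM in control XY and 21.6 to 31.0 TPM in control XX. Macrophage sums were 35.0 to 75.7 TPM in control XY and 24.1 to 34.3 TPM in control XX. Mesonephric sums were 88.8 to 105 TPM in control XY and 51.0 to 77.1 TPM in control XX. Germ cell sums were 12.5 to 14.9 TPM in control XY and 5.87 to 9.2 TPM in control XX. Endothelial sums overlapped, at 64.7 to 142 TPM in control XY and 108 to 115 TPM in control XX. At E11.5 the gonadal somatic sums were 765 to 888 TPM in XY and 988 to 1179 TPM in XX. The part of these levels in the results for erasers and writers was not tested.

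At E11.5, Kdm3a alone was called between the sexes. It was at 93.8 and 86.8 TPM in E11.5 XY, against 147 and 134 TPM in E11.5 XX, a log2 change of -0.64 ± 0.12 (adjusted p = 0.0256 in limma) and the same direction as in culture. In this comparison 1 of 10 members was called lower and 0 higher, where 1.2% of all genes were called lower and 1.09% higher. The value changed little with scaling, at -0.59 with an adjusted p of 0.0235 after median-of-ratios scaling. The call was lost without any 1 of the 4 libraries, with adjusted p between 0.0552 and 0.155 in limma.

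Kdm4b was at 24.5 and 28.9 TPM in E11.5 XY, against 36.7 and 37.7 TPM in E11.5 XX, without overlap, and its log2 change of -0.47 had an adjusted p of 0.0611 in limma. Kdm4a, at 89.1 and 91.5 TPM in E11.5 XY against 120.3 and 109.6 TPM in E11.5 XX, and Ehmt2, at 98.3 and 106 TPM in E11.5 XY against 149 and 114 TPM in E11.5 XX, did not overlap either and were not called. Such separation, with E11.5 XY lower, was found in 4 of 10 members, where 22.1% of all genes had it. The remaining 6 members had log2 changes between -0.085 and 0.11. The log2 ratio of summed erasers to summed writers was 0.22 and 0.25 in E11.5 XY and 0.35 and 0.45 in E11.5 XX.

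**Figure D5:**
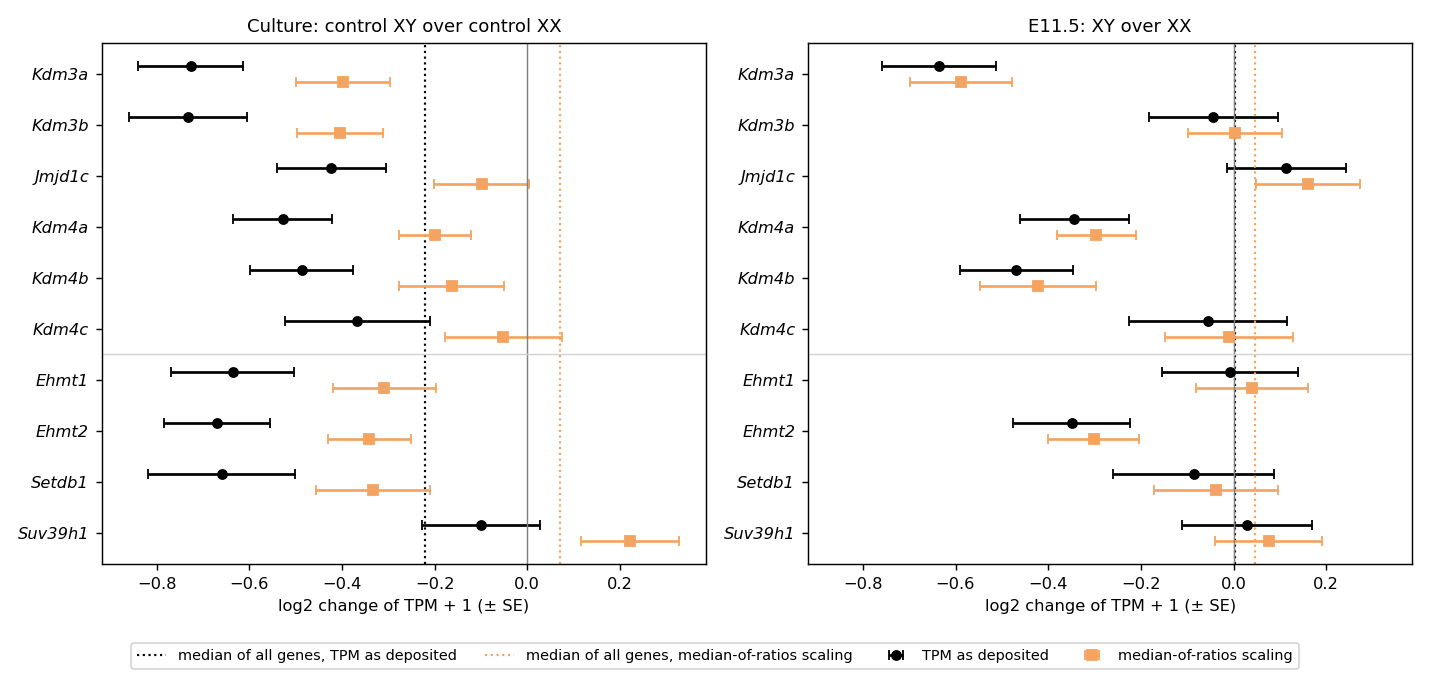
Log2 change of TPM + 1 between XY and XX (horizontal axes, ± SE) in culture and at E11.5 for erasers above the line and writers below it, with TPM as deposited and after median-of-ratios scaling. In culture the dotted median of all genes lies at -0.22 with TPM as deposited and at 0.070 after scaling, and the members lie farther right after scaling. At E11.5 Kdm3a lies at -0.64 with TPM as deposited and at -0.59 after scaling.

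Whether the sex difference itself differed between culture and E11.5 was tested as an interaction. None of the 10 members was called in limma, where 1.33% of all genes were, although 4 had an unadjusted p under 0.05, as had 20.8% of all genes. The smallest adjusted p was that of Kdm3b, 0.0808, for a log2 value of -0.69 ± 0.19. Kdm3b was at 72.4 and 78.5 TPM in E11.5 XY against 85.0 and 71.2 TPM in E11.5 XX, where the sexes overlapped. Without control XY replicate 3, Kdm3b was called, at -0.77 with an adjusted p of 0.0408 in limma. For Kdm3a the interaction was -0.091 ± 0.17. Over all genes, 31 were called higher and 184 lower with TPM as deposited, and 21 higher and 13 lower once median-of-ratios scaling was applied.

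Cultured control gonads were also set against those at E11.5 of the same sex. In XY, 0 of 10 members were called in limma, where 5.66% of all genes were, and 3 had an unadjusted p under 0.05, as had 23.5% of all genes. Kdm4b was at 34.8, 32.0 and 34.9 TPM in control XY, against 24.5 and 28.9 TPM in E11.5 XY, so that every cultured library was higher; its log2 change of 0.34 ± 0.11 had an adjusted p of 0.0951 with TPM as deposited and it was called after median-of-ratios scaling, at 0.43 (adjusted p = 0.0456 in limma). Ehmt1 was at 64.9, 70.1 and 76.7 TPM in control XY, against 94.9 and 90.5 TPM in E11.5 XY, with every cultured library lower and a log2 change of -0.39 ± 0.13 (adjusted p = 0.104 in limma). Kdm3b, Setdb1 and Suv39h1 also had every cultured library lower, as had some of the 30 other pathway genes. The share of all genes with such separation is not given here, so it is not read as a trait of these genes. The median log2 change of all genes was -0.11 with TPM as deposited. Over all genes, the calls were 422 higher and 491 lower with TPM as deposited, and 616 higher and 423 lower once libraries were scaled by median of ratios.

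In XX, 1 of 10 members was called higher in limma and 0 lower, where 7.36% of all genes were called higher and 1.71% lower. This was Jmjd1c, at 67.8 and 60.1 TPM in control XX, against 45.5 and 43.7 TPM in E11.5 XX, with a log2 change of 0.51 ± 0.13 (adjusted p = 0.0287 in limma). Its groups did not overlap, but the call was lost after median-of-ratios scaling, at 0.33 (adjusted p = 0.121), and without any 1 of the 4 libraries (adjusted p between 0.0564 and 0.166 in limma). Without E11.5 XX replicate 1, Ehmt2 was called higher in its place, at 0.57 (adjusted p = 0.0180 in limma). Separation of the groups was not particular to Jmjd1c: most other members also had every cultured library higher. Among the 30 other pathway genes, some had every cultured library higher and fewer had every one lower. The share of all genes with such separation is not given here, so it is not read as a trait of the members. The median log2 change of all genes was 0.12. Over all genes, the calls here were 1187 higher and 276 lower with TPM as deposited, and 474 higher and 378 lower after that scaling. The cultured gonads were taken at E10.8 and had 19.2 h of culture before RNA was made. How the E11.5 samples were collected is not settled by the labels. Culture, as labelled, and the embryonic day of collection cannot be told apart between these groups.

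Set in order of group means, Kdm3a stood highest in Dfo XY (298 TPM), then in control XX (158 TPM) and E11.5 XX (141 TPM), which overlapped, and then in control XY (94.8 TPM) and E11.5 XY (90.3 TPM), which overlapped too. Kdm4b had the same order, with 82.8 TPM in Dfo XY, 47.9 in control XX, 37.2 in E11.5 XX, 33.9 in control XY and 26.7 in E11.5 XY, and no neighbours overlapped. Kdm3b, Kdm4a, Ehmt1, Ehmt2 and Setdb1 were highest in control XX and lowest in Dfo XY, with the libraries of Dfo XY overlapping those of the next group except for Ehmt2. Suv39h1 was lowest in Dfo XY, at 26.2 TPM, and highest in E11.5 XY, at 40.8 TPM, and the 4 groups without deferoxamine overlapped from each neighbour to the next. Across the 12 libraries, mean levels ranged from 20.2 TPM for Kdm4c to 163 TPM for Kdm3a.

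The genes whose TPM ran most like that of Kdm3a over the 12 libraries, among 10510 genes ranked by Pearson's r, were Aldoa, a glycolytic aldolase (r = 0.989), Lonp1, a mitochondrial protease (0.977), P4hb, a protein disulphide isomerase (0.975), Gys1, a glycogen synthase (0.972), and Alkbh5, an RNA demethylase (0.972). Aldoa averaged 1853 ± 92.4 TPM in Dfo XY and 522 ± 53.5 TPM in control XY (SD, n = 3 each). Those most like Kdm4b were Fosl2, an AP-1 factor (0.980), Siah2, a ubiquitin ligase (0.977), and Gys1 (0.972). Kdm4b stood 12th in the ranking for Kdm3a, with r = 0.959, Kdm4c followed with 0.837 and Jmjd1c with 0.63, and Suv39h1 had the lowest value of the members, -0.73. These values describe 12 libraries that form 5 groups, of which Dfo XY is the highest for Kdm3a and Kdm4b, and libraries share the scaling and marker levels given above.

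Several members overlap other genes on the opposite strand, among them Jmjd1c with Reep3 and Setdb1 with Cers2. The library kit keeps strand, but the sources used here do not give whether counting used it, so a part of their TPM could come from those neighbours.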

How the data were processed

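Total RNA of NR5A1(+) cells was made into libraries with the SMART-Seq Stranded Kit, per the labels' protocols. The authors deposited TPM, 1 table per library. STAR 2.7.10b, RSEM, R 4.1.2 and mm10 are named in the submitters' processing notes; for annotation and filters the sources used here give nothing. Depth cannot be read from TPM, so no counting interval was computed.

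Group differences were tested on log2(TPM + 1), which understates changes of low genes, with limma 3.58.1 in R 4.3.3. All 12 libraries and 5 groups entered 1 fit, with a variance trend and no covariate. Genes with at least 1 TPM in at least 2 libraries were kept (16133), and p-values were adjusted by Benjamini-Hochberg over all of them in each contrast. Calls were made below an adjusted p of 0.05. The fit was tested on simulated data first.

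Replicate numbers of Dfo XY and control XY were checked for pairing: deviations from group means correlated across genes at r = 0.21, 0.12 and 0.34 for replicates 1, 2 and 3, above 0.1 in each pair, so blocked values are given where they change a call. Replicates 1 and 2 also correlated across numbers (0.18 and 0.14).

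Median-of-ratios scaling divided each library by the median ratio of its genes to their geometric mean. Other settings were a pseudocount of 0.1, no filter, the 50 most abundant genes left out, a replicate block, each library left out, replicates 1 and 2 averaged, the Xist-holding Dfo XY libraries left out and a fit of 6 libraries.

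The members and lists were chosen with earlier results of these data known. Named were all 10 members, Sry, up to 5 called genes of the other pathway lists by adjusted p, and the genes most like Kdm3a (5) and Kdm4b (3). Of 32 names listed for those lists, older symbols were matched through RefSeq, which left 30 genes. Promoter windows are from RefSeq on GRCm38.p6.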

Additional observations from a re-analysis of the deposited data

How the results depend on the processing

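Kdm3a and Kdm4b were called higher in Dfo XY than in control XY in all 14 alternatives, at log2 1.59 to 1.80 and 1.18 to 1.41. Causes of the other shifts were not tested. For Dfo XY against control XY, the members called were 2 with no filter, 2 with replicates 1 and 2 averaged, 2 without both Xist-holding libraries and 2 to 3 with 1 library left out; the genes called were 4339 with the replicate block (2979 in the same 6 libraries without it), 850 averaged, 901 without those libraries and 1490 to 2212 with 1 library left out. The ratio difference was 0.93 without those libraries and 1.03 to 1.13 with 1 left out. Signs turned for Kdm3b (0.13 after median-of-ratios scaling, 0.079 without the 50 most abundant genes, 0.14 without the Xist-holding libraries, -0.097 to 0.068 with 1 library left out), Kdm4a (0.055, 0.00031 and 0.052), Ehmt1 (0.068 without the Xist-holding libraries) and Setdb1 (0.092, 0.038, 0.25, and -0.21 to 0.050).

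For control XY against control XX, 3 members and 1027 genes were called after median-of-ratios scaling, 3 and 1248 without the 50 most abundant genes, and 4 to 8 and 1920 to 4247 with 1 library left out. At E11.5, 0 members and 121 genes were called between the sexes with the replicate block, 565 genes with no filter, and 0 members and 53 to 161 genes with 1 left out. For control XY against E11.5 XY, 1 member was called after each scaling (Kdm4b) and 1 with the block (Ehmt1), with 1381 genes, in a fit that also leaves out control XY replicate 3 and the other groups, and 0 members and 275 to 1489 genes with 1 left out. For control XX against E11.5 XX, 0 members were called after either scaling or with the block, 852 genes after median-of-ratios scaling, and 0 to 1 members (Ehmt2, without E11.5 XX replicate 1) and 432 to 1348 genes with 1 left out. For the interaction, 34, 41 and 29 genes were called after median-of-ratios scaling, without the 50 most abundant genes and with the block, and 0 to 1 members and 14 to 731 genes with 1 left out; without control XY replicate 3, Kdm3b was called. Every block fit holds only libraries of the groups compared whose numbers they share. The groups of 2 share replicate numbers only as names, with r of -0.032 and -0.027 between same-numbered libraries.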
